A study of Homo sapiens with 18 samples.

Results

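In the highly metastatic colon cancer line SW480-LM3, 56 genes that its parental line SW480-P expressed at a high level gave almost no reads. They were chosen from the deposited values themselves: a signal of at least 50 in each of the 3 SW480-P libraries and under 1 in each of the 3 SW480-LM3 libraries. Of 15543 genes listed for these libraries, 61 met both thresholds. CPS1, GSTM3, LIFR, C4BPB and WNT5A were left out by name. Collagen genes were also to be left out, and none of the 61 was a collagen. Among the 4108 genes at 50 or more in each SW480-P library, the 56 make up 1.36%. The opposite pattern, at least 50 in each SW480-LM3 library and under 1 in each SW480-P library, was met by 31 genes. Because the signal in SW480-LM3 and SW480-P chose these genes, it is described for them without a test. Their levels in 12 further libraries, of NID1-overexpressing SW480 cells, of exosome-treated stellate cells and of the controls of each, were not used by the rule. The rule was set with earlier results of these data known.

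The data are poly(A) RNA sequencing of 18 libraries in 6 groups of 3. SW480 is a human colon cancer line, and SW480-LM3 was obtained from it in 3 rounds of spleen injection, with SW480-P as the parental line. LV5-NID1 is SW480 made to overexpress nidogen 1 (NID1), a basement membrane glycoprotein, and treated with GW4869, an inhibitor of exosome release, for 72 h; its control is LV5. EV-XP-NID1-LX-2 is LX-2, a human hepatic stellate line, incubated for 48 h with exosomes containing NID1, and its control is EV-XP-LX-2. The labels do not say whether LV5 cells were given GW4869, what EV-XP-LX-2 cells were incubated with, or what XP stands for. NID1 overexpression and GW4869 therefore cannot be told apart in LV5-NID1. Nothing states that the 3 libraries of a group came from separate cultures, so p-values measure only how far these libraries differ from each other, and that spread may be technical.

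NID1 itself was 348, 352 and 379 TPM (transcript abundance corrected for gene length and library size) in LV5-NID1, against 0, 0.04 and 0.02 TPM in LV5. It was 21.7, 18.0 and 22.6 TPM in LX-2 cells given NID1 exosomes, against 25.1, 25.1 and 26.0 TPM in EV-XP-LX-2. In signal it was 44.7, 49.1 and 46.9 in SW480-LM3, against 0.57, 0.582 and 0.352 in SW480-P. Group means were compared by rank over 14744 genes found in all 3 tables, which were normalized separately. SW480-LM3 correlated with SW480-P at a Spearman rho of 0.793, with EV-XP-LX-2 at 0.713 and with LV5 at 0.694. SW480-P correlated with LV5 at 0.886 and with EV-XP-LX-2 at 0.794. Without the members these values were 0.806, 0.717, 0.705, 0.886 and 0.798. SW480-LM3 thus ranked no closer to LV5, another SW480 culture, than to the stellate line. SW480-P had about the same rho with the stellate line as with SW480-LM3, but these are unlike measures. The former sets signal, not corrected for gene length, against TPM, and the latter sets signal against signal. Change during selection and a source of SW480-LM3 other than SW480 cannot be told apart here. The 8 listed colon epithelial markers summed to 13191 to 13906 in SW480-LM3, where all 8 were at 1 or more, and to 3522 to 3790 in SW480-P, where CDH17 was at 0. In bulk RNA, fewer cells carrying a transcript and less of it per cell cannot be told apart either.

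Genes can be shut off as a group without sharing a pathway. In cancer cells, promoters rich in the dinucleotide CG can become methylated at cytosine and stay silent through cell division, and the polycomb complex can hold promoters closed by methylating histone H3. The 56 genes span secreted growth factors and matrix proteins, cell surface receptors, intracellular signalling, the cytoskeleton, transcription factors, enzymes and noncoding RNAs. Some, such as EGFR, the glucocorticoid receptor NR3C1 and the cytokine receptor OSMR, decide which outside signals a colon cancer cell can read, and others, such as MAGEA1 and MAGEA6, belong to families that are normally active in the testis and are switched on in tumours.

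Promoters of the members varied widely in CG content. RefSeq promoters (GRCh38.p14), spanning 250 bases before to 50 bases after a start site, were found by symbol for 39 members, of which 25 had exactly 1. Those 25 held a median of 19 CG dinucleotides in 300 bases (quartiles 9 and 27, range 0 to 47). The 8165 genes of the SW480-LM3 and SW480-P table with exactly 1 promoter held a median of 27 (quartiles 19 and 35, range 0 to 69). Windows with 5 or fewer CG made up 4 of 25 among members, or 16.0%, and 6.12% among the table's genes. The motif TATAAA was read on both strands and stood in 3 of the 25 windows and in 5.78% of the table's genes. For 20 of the 25, the start site lay within 1 kb of the outermost start in GENCODE v29. These 20 also had a median of 19, and 2 of them held 5 or fewer CG. The other 5 starts lay inside the annotated gene: PDE3A (0 CG) by 202.8 kb, BASP1 by 151 kb, SPINK5 by 38.3 kb, EPAS1 by 3.74 kb and GLP2R by 3.72 kb. Which start site is in use was not tested. No methylation or chromatin was measured in these libraries. The 4 windows below are shown because they run from many CG to few; capitals mark each CG.
EPAS1: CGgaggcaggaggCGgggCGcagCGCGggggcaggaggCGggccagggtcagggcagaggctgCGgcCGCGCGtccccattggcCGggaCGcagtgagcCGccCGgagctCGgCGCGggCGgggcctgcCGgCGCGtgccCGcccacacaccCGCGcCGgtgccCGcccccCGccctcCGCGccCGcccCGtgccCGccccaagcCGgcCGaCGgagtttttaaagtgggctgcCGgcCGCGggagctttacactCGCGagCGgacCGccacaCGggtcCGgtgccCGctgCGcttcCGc
FSTL1: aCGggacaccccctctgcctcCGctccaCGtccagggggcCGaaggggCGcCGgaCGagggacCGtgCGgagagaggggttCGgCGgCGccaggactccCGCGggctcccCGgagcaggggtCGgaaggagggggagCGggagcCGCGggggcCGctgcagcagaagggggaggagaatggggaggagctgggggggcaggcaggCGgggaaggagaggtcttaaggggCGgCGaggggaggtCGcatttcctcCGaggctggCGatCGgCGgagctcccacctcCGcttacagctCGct
BASP1: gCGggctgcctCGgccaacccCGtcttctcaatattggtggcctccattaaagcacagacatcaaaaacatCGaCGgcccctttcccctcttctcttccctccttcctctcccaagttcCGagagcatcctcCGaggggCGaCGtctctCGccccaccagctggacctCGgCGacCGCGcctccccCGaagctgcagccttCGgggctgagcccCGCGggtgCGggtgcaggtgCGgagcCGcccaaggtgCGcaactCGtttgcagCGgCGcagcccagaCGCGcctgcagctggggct
SPINK5: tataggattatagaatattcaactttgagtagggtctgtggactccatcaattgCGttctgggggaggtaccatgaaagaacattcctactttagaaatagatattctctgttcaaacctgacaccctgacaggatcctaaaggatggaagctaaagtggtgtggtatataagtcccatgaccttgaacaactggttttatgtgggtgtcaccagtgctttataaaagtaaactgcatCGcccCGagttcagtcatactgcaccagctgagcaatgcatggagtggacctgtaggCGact
EPAS1, which encodes the hypoxia-inducible factor HIF-2 alpha, has 47 CG (chr2:46297157-46297456, plus strand), FSTL1 has 30 (chr3:120450943-120451242, minus strand) and BASP1 has 27 (chr5:17216573-17216872, plus strand). SPINK5 has 4 CG and carries TATAAA (chr5:148063730-148064029, plus strand). The CG-rich EPAS1, FSTL1 and BASP1 windows and the CG-poor SPINK5 window belong to genes that the rule chose for the same pattern of signal. The part of CG content in that pattern was not tested.

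**Figure D1:**
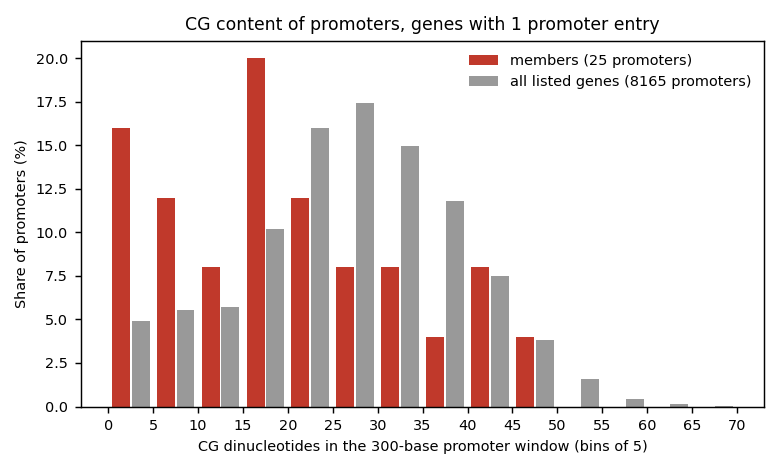
CG dinucleotides per 300-base promoter window (x axis, bins of 5) against the share of promoters (y axis, percent), for the 25 members with 1 RefSeq promoter (red) and the 8165 genes of the SW480-LM3 and SW480-P table with 1 promoter (grey). The members' median is 19 and that of all genes is 27.

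The deposited signal in SW480-LM3 and SW480-P is a read count divided by a factor per library and not corrected for gene length, so it compares libraries and not genes. A signal of 0.0542 to 0.0712 was worth 1 read, and 15504205 to 18965163 reads were recovered per library. Signal summed to 899507 to 908688 in SW480-LM3 libraries and to 1102964 to 1104681 in SW480-P libraries. The factor did not follow the recovered reads alone. SW480-LM3 replicate 1 held 15539298 reads, each worth 0.0582, and SW480-P replicate 1 held 15504205, each worth 0.0712. Ratios of signal between the groups depend on this factor. BASP1, a membrane-bound protein that binds the lipid PIP2 and actin at the cell cortex, had 0 reads in all 3 SW480-LM3 libraries, against a signal of 608, 602 and 600.4 in SW480-P. With 3 reads over the group as the limit that a count of 0 allows, that is at least 10603-fold lower. FSTL1, a secreted glycoprotein related to follistatin, was 0.465, 0.293 and 0 in SW480-LM3, against 307, 314 and 320.3 in SW480-P. SPINK5, an inhibitor of kallikrein proteases, was 0.349, 0.351 and 0.325 in SW480-LM3, against 254, 263 and 273 in SW480-P. The SW480-LM3 values of FSTL1 and SPINK5 rest on 13 and 18 reads over the group.

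H19, an imprinted noncoding RNA of fetal tissues, was 0.174, 0.41 and 0.325 in SW480-LM3, against 272, 263 and 246 in SW480-P. EFEMP1, the matrix protein fibulin-3, was 0.058, 0 and 0 in SW480-LM3, against 249, 253 and 249.97 in SW480-P. Its single SW480-LM3 read gives a ratio of 13227-fold lower (95% counting interval 2373 to 522481). LIMCH1, which activates non-muscle myosin in stress fibres, was 0.233, 0.059 and 0.054 in SW480-LM3, against 185, 191 and 191 in SW480-P. IGFBP7, a secreted protein that binds insulin-like growth factors, was 0, 0 and 0.054 in SW480-LM3, against 190.1, 185 and 179 in SW480-P. It too rests on 1 read, at 9746-fold lower (95% counting interval 1749 to 385003). Such intervals and limits cover counting error only.

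LY6K, a lipid-anchored surface protein of germ cells, was 0.291, 0 and 0 in SW480-LM3, against 178, 171 and 158 in SW480-P. SPINK6, a second kallikrein inhibitor, had 0 reads in SW480-LM3, against a signal of 169, 169 and 165 in SW480-P, at least 2945-fold lower. OLR1, the receptor for oxidised LDL, had 0 reads in SW480-LM3, against 147, 143 and 157 in SW480-P, at least 2609-fold lower. The groups stood apart for every member, as the thresholds require, and the coefficient of variation between SW480-P libraries had a median of 3.59% and a maximum of 11.9%.

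**Figure D2:**
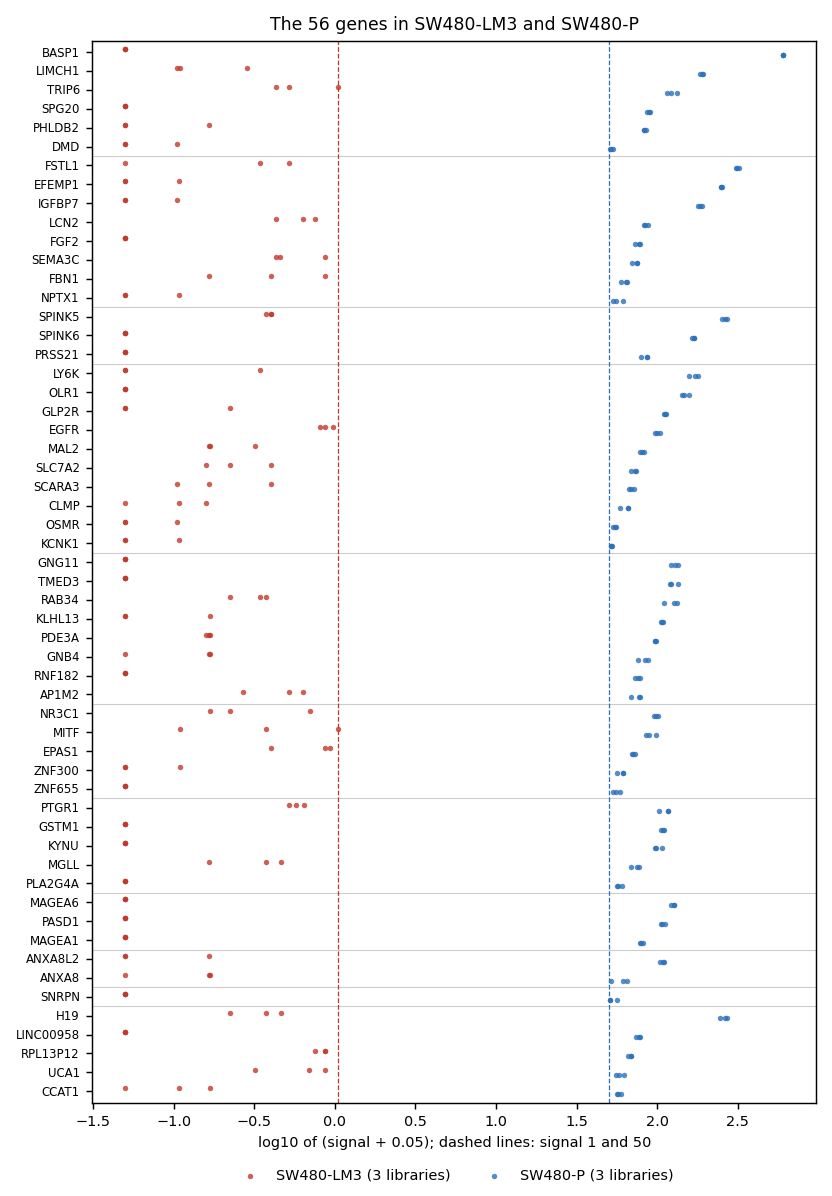
Signal of the 56 genes (y axis, grouped by role) in each of 3 SW480-LM3 libraries (red) and 3 SW480-P libraries (blue), as log10 of signal + 0.05. SW480-LM3 values lie left of the dashed line at 1 and SW480-P values right of the dashed line at 50, which the choice of genes fixes; the leftmost points are libraries with 0 reads.

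Silence was complete in some members and not in others. In 18 members no SW480-LM3 library held a read: BASP1, SPINK6, OLR1, GNG11, MAGEA6, TMED3, PASD1, GSTM1, KYNU, SPG20, PRSS21, MAGEA1, LINC00958, RNF182, FGF2, PLA2G4A, ZNF655 and SNRPN. Fewer than 10 reads over the 3 SW480-LM3 libraries were seen in 38 members. At the other end EGFR kept 44 reads, RPL13P12 41, EPAS1 36 and TRIP6 32 in SW480-LM3. The median of the members' means was 0.0472 in SW480-LM3 and 84.6 in SW480-P. Nearest the threshold of 1 in SW480-LM3 were TRIP6 (highest library 0.995), MITF (0.989) and EGFR (0.922), all inside, while WISP2, BNIP3 and KRT5 lay just outside, each with a highest library of 1.105. Nearest the threshold of 50 in SW480-P were ANXA8 (lowest library 51.4), DMD (51.2) and SNRPN (50.9), while HS6ST2 (47.9), LPL (47.7) and RPL39L (46.4) lay just outside.

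Among secreted proteins and matrix, the other members were FBN1, the microfibril protein fibrillin-1, SEMA3C, a secreted semaphorin, the growth factor FGF2, the neuronal pentraxin NPTX1 and LCN2, a lipocalin that binds iron-carrying siderophores. FGF2 was at 0 in SW480-LM3, against 72.5, 76.5 and 78.1 in SW480-P, and NPTX1 was 0.058, 0 and 0 in SW480-LM3, against 61.6, 53.2 and 55.5 in SW480-P. PRSS21, the lipid-anchored protease testisin, joined SPINK5 and SPINK6 in the group of proteases and their inhibitors. Its signal was 0 in SW480-LM3, against 86.8, 87.0 and 79.4 in SW480-P.

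Receptors and membrane proteins formed the most numerous group, with 10 members. EGFR, the epidermal growth factor receptor, was 0.756, 0.819 and 0.922 in SW480-LM3, against 100.3, 104 and 96.6 in SW480-P. OSMR, the oncostatin M receptor, had 1 read in SW480-LM3, against 53.3, 54.7 and 55.5 in SW480-P. GLP2R, the receptor for glucagon-like peptide 2 that supports growth of the gut lining, was 0.174, 0 and 0 in SW480-LM3, against 112, 113 and 111 in SW480-P. The others besides OLR1 and LY6K were SCARA3, a scavenger receptor-like protein, CLMP, an adhesion molecule of cell junctions, KCNK1, a potassium leak channel, SLC7A2, a transporter of cationic amino acids, and MAL2, which serves transcytosis in polarised epithelium.

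Signalling and trafficking members were the G protein subunits GNG11 (gamma) and GNB4 (beta), PDE3A, a cyclic nucleotide phosphodiesterase, RNF182, a ubiquitin ligase, KLHL13, an adaptor of a cullin ubiquitin ligase, RAB34, a small GTPase, TMED3, a cargo receptor between endoplasmic reticulum and Golgi, and AP1M2, an epithelial clathrin adaptor subunit. GNG11 was at 0 in SW480-LM3, against 128, 134 and 121 in SW480-P. GNB4 was 0.116, 0.117 and 0 in SW480-LM3, against 75.5, 83.6 and 87.3 in SW480-P. Besides BASP1 and LIMCH1, the cytoskeletal members were PHLDB2, which anchors microtubules at the cell cortex, TRIP6, an adhesion protein of the zyxin family, DMD, dystrophin, and SPG20, spartin, which acts in lipid droplet turnover.

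The transcription factors were NR3C1, EPAS1, MITF, the master regulator of melanocytes, and the zinc finger proteins ZNF300 and ZNF655. NR3C1 was 0.174, 0.117 and 0.651 in SW480-LM3, against 95.8, 102 and 98.2 in SW480-P, and EPAS1 was 0.349, 0.878 and 0.813 in SW480-LM3, against 69.3, 70.5 and 72.7 in SW480-P. The enzymes were GSTM1, a glutathione transferase, PTGR1, a prostaglandin reductase, KYNU, which degrades kynurenine from tryptophan, MGLL, monoacylglycerol lipase, and PLA2G4A, the cytosolic phospholipase that releases arachidonic acid. GSTM1, KYNU and PLA2G4A had no SW480-LM3 read, while PTGR1 was 0.523, 0.468 and 0.597 in SW480-LM3, against 103, 117 and 117 in SW480-P. MAGEA1, MAGEA6 and PASD1, cancer-testis genes of the X chromosome, were all at 0 in SW480-LM3, against 77.7 to 127 in single SW480-P libraries.

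The noncoding members besides H19 were UCA1, CCAT1 and LINC00958, long RNAs known from tumours, and the ribosomal protein pseudogene RPL13P12. UCA1 was 0.64, 0.819 and 0.271 in SW480-LM3, against 55.7, 57.7 and 62.3 in SW480-P. CCAT1, a transcript named for colon cancer, was 0.058, 0.117 and 0 in SW480-LM3, against 59.8, 56.5 and 57.3 in SW480-P. SNRPN, an imprinted splicing protein gene, and the annexins ANXA8 and ANXA8L2, which bind phospholipids in the presence of calcium, complete the set. Several members have near-identical relatives whose reads the counting could have moved among them. These are ANXA8 with ANXA8L2, MAGEA6 with MAGEA3, GSTM1 with other GSTM genes, and RPL13P12 with RPL13, so their separate values are uncertain.

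Chromosomal positions were scattered. GENCODE v29 placed 53 members by gene ID on 17 chromosomes, with 6 members on chromosome 5 and 5 each on chromosomes 3, 7 and X. Chromosome 5 held 11.3% of the placed members and 4.57% of listed genes, and the X chromosome held 9.43% of members and 3.22% of listed genes. Chromosomes 10, 14, 18, 20, 21 and 22 held none of these 53. ANXA8, ANXA8L2 and CCAT1 were not placed. SPINK5 and SPINK6 lie 65.5 kb apart with no listed gene between them, and MAGEA6 and MAGEA1 lie 410 kb apart with 3 listed genes between. No other pair of the 53 lay within 1 Mb.

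The nearest listed gene on each side that was no member was read in the same libraries, 104 genes in all. They lay from 0 kb away, where they share bases with the member, to 8463 kb away. They were not split by distance or overlap. Of 97 tested by limma, 68 were lower and 23 higher in SW480-LM3, so 70.1% were lower where 43.9% of all 14527 genes tested were (87.8% called in either direction). Their median log2 fold change was -0.70, against -0.004 over all genes. Under 1 in every SW480-LM3 library were 25 neighbours, 24.0%, where 8.83% of all listed genes were, and 51 neighbours, 49.0%, were at 10 or more in every SW480-LM3 library, where 61.4% of all listed genes were. Of these 25, only 5 were at 10 or more in every SW480-P library, TFPI2 and TNFRSF11B among them. The rest of the 25 did not reach 10 in every SW480-P library. Those of the 25 that were tested passed the filter on low values only through SW480-P, so they could be called only lower. TFPI2, beside GNG11, was at 0 in SW480-LM3, against 16.7, 16.5 and 12.3 in SW480-P. TNFRSF11B, beside MAL2, was 0.291, 0.117 and 0.217 in SW480-LM3, against 25.8, 24.9 and 27.4 in SW480-P.

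Other neighbours stayed abundant in SW480-LM3. MYO10, the nearest listed gene before BASP1 at 129.3 kb, was 207, 209 and 204 in SW480-LM3, against 146, 142 and 137 in SW480-P. TEAD1, 17.4 kb from LINC00958, was 222, 227 and 229 in SW480-LM3, against 248, 255 and 236 in SW480-P. These neighbours were picked after their values were seen. Some members share bases with another listed gene, and the sources used here do not say whether counting used strand. TMEM52B, opposite OLR1, and SNHG14, the host transcript on the strand of SNRPN, were at 0 in SW480-LM3 like the members they overlap. POLR2B, opposite IGFBP7, was 201, 197 and 193 in SW480-LM3, against 205, 209.8 and 223 in SW480-P, and RICTOR, opposite OSMR, was 68.2, 67.1 and 67.1 in SW480-LM3, against 88.1, 87.3 and 94.7 in SW480-P.

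Levels of the members in LV5 come from SW480 libraries whose values the rule did not use. By gene ID, 54 of the 56 were listed there (ANXA8 and CCAT1 were not), and all 54 were at 1 TPM or more in every LV5 library. The same held for 99.8% of the other genes at 50 or more in each SW480-P library. Members' means in LV5 ran from 11.3 to 343 TPM, with a median of 51.4. TPM is corrected for length, so these levels can be compared between genes. BASP1 led with 362, 335 and 331 TPM, above SPINK5 with 250.3, 251 and 235 TPM and IGFBP7 with 215, 237 and 245 TPM in LV5. SPINK6 had 205, 218 and 226, H19 had 212, 197 and 181 and EFEMP1 had 183, 197 and 199.6 TPM in LV5. BASP1 stood apart from SPINK5, and from SPINK5 down each gene's libraries overlapped those of the next.

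At the low end in LV5 were RPL13P12 with 12.1, 11.8 and 9.89 TPM, UCA1 with 13.7, 12.5 and 12.4 TPM and PASD1 with 13.3, 13.9 and 14.1 TPM. PLA2G4A had 15.6, 17.2 and 16.8, MITF had 17.7, 17.9 and 17.9 and SLC7A2 had 19.1, 19.6 and 16.7 TPM in LV5. UCA1 overlapped PASD1 and MITF overlapped SLC7A2, while the other neighbours in this order did not overlap.

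**Figure D3:**
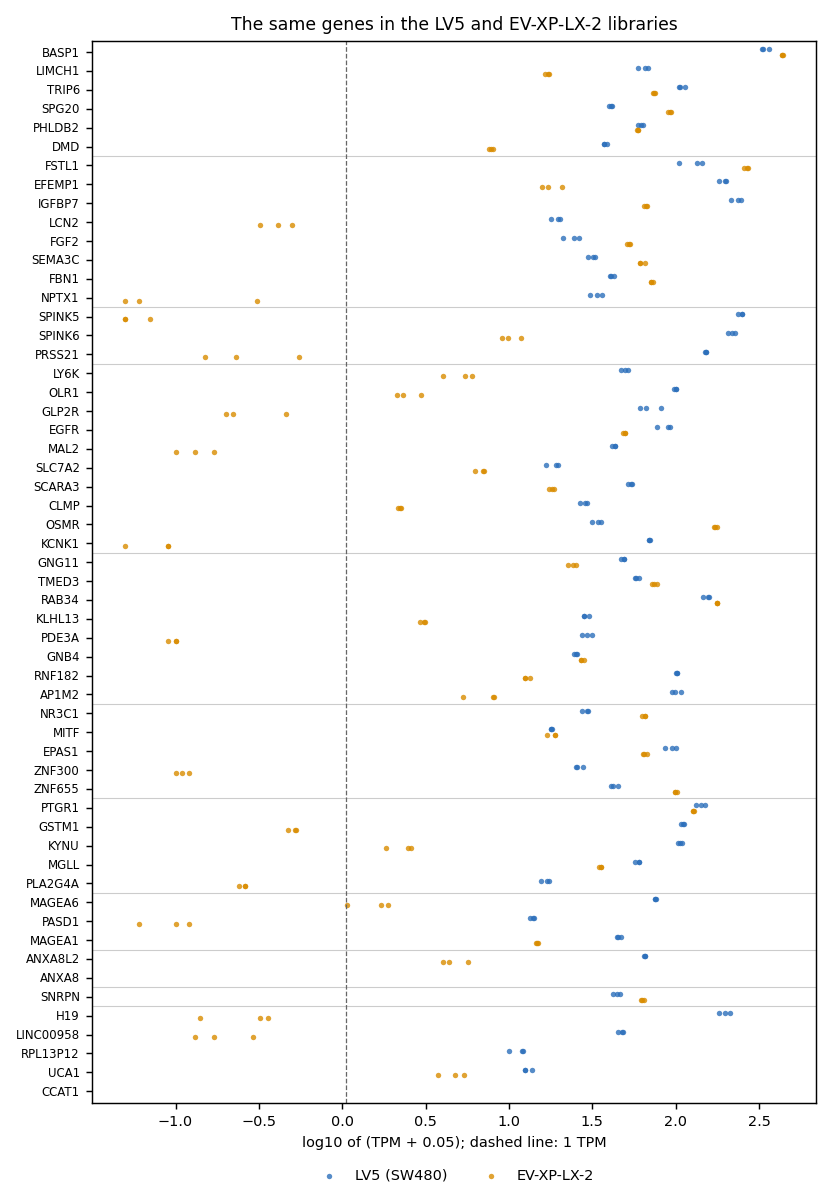
Level of the members (y axis, same order by role) in the 3 LV5 libraries (blue) and the 3 EV-XP-LX-2 libraries (orange), as log10 of TPM + 0.05; the tables were normalized separately. All LV5 points lie right of the dashed line at 1 TPM, and 14 members lie left of it in every EV-XP-LX-2 library.

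LX-2 stellate cells expressed most of the same genes. Of 53 members listed there, 39 were at 1 TPM or more in every EV-XP-LX-2 library, 73.6%, against 98.8% of the 4016 other listed genes at 50 or more in each SW480-P library. The other 14 were under 1 TPM in every EV-XP-LX-2 library: SPINK5, H19, GLP2R, PASD1, GSTM1, PDE3A, LCN2, PRSS21, MAL2, LINC00958, ZNF300, PLA2G4A, NPTX1 and KCNK1. RPL13P12 was not listed. All 6 cytoskeletal members and 7 of 8 signalling and trafficking members were at 1 TPM or more. Among the protease inhibitors and the protease, only SPINK6 was, at 9.84, 9.04 and 11.8 TPM.

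BASP1 was again the most abundant, with 434, 431 and 442 TPM in EV-XP-LX-2. It was followed by FSTL1 with 269, 270.3 and 257 TPM and RAB34 with 177, 178 and 177 TPM. OSMR had 178, 170.1 and 172, PTGR1 had 127, 128 and 127 and ZNF655 had 99.3, 102 and 98.2 TPM. RAB34 and OSMR overlapped, while the other neighbours in this order did not. In the table for LX-2, 7 of 8 listed stellate markers were at 1 TPM or more in every library of both groups.

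NID1-overexpressing, GW4869-treated SW480 cells held lower levels of many members than LV5, and all 54 listed members were still at 1 TPM or more in every LV5-NID1 library. SPINK6 and SPINK5, the adjacent kallikrein inhibitors, fell the most among coding members, together with GLP2R. UCA1 and H19 also fell by more than 1 on the log2 scale. LINC00958, ZNF300 and LCN2 rose. Of 54 members tested by limma on log2(TPM + 1), 21 fell and 3 rose at an adjusted p under 0.05, where 16.6% of all 15508 genes were called, 9.32% lower and 7.27% higher. As shares of the members tested, 38.9% fell and 5.56% rose. Among 4010 other genes at 50 or more in each SW480-P library, 19.7% were called, 11.1% lower and 8.53% higher. A fall of 1 or more was seen in 5 members (SPINK6, UCA1, SPINK5, H19 and GLP2R), in 1.28% of all genes and in 0.673% of the other genes high in SW480-P. With quantile normalization 17 members fell and 5 rose, and 54.8% of all called genes were higher, where 43.8% were on the deposited values. The median log2 fold change of the members was -0.21, against 0.006 over all genes tested and 0.001 over the other genes high in SW480-P. Groups did not overlap in 37 members, 68.5%, where they did not overlap in 43.3% of all genes and in 48.4% of the other genes high in SW480-P.

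SPINK6 was 58.5, 62.0 and 64.8 TPM in LV5-NID1, against 205, 218 and 226 TPM in LV5 (log2 fold change -1.79, SE 0.06, adjusted p = 0.000267). SPINK5 was 109, 114 and 125 TPM in LV5-NID1, against 250.3, 251 and 235 TPM in LV5 (log2 fold change -1.08, SE 0.07, adjusted p = 0.000938). All LV5-NID1 libraries were below all LV5 libraries for both. RNF182 was 54.0, 55.1 and 61.5 TPM in LV5-NID1, against 101, 102 and 100.4 TPM in LV5 (log2 fold change -0.82, SE 0.06, adjusted p = 0.00165). SCARA3 was 30.9, 30.0 and 27.4 TPM in LV5-NID1, against 54.9, 53.8 and 51.5 TPM in LV5 (log2 fold change -0.84, SE 0.06, adjusted p = 0.00168). UCA1 was 4.93, 3.78 and 4.99 TPM in LV5-NID1, against 13.7, 12.5 and 12.4 TPM in LV5 (log2 fold change -1.32, SE 0.11, adjusted p = 0.00211). The groups did not overlap in any of these 3 genes.

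ANXA8L2 was 44.2, 42.2 and 47.2 TPM in LV5-NID1, against 65.6, 64.7 and 64.9 TPM in LV5 (log2 fold change -0.54, SE 0.06, adjusted p = 0.0041). IGFBP7 was 126, 139 and 149 TPM in LV5-NID1, against 215, 237 and 245 TPM in LV5 (log2 fold change -0.75, SE 0.08, adjusted p = 0.00421). GLP2R was 32.4, 31.5 and 34.6 TPM in LV5-NID1, against 81.4, 66.2 and 60.6 TPM in LV5 (log2 fold change -1.05, SE 0.11, adjusted p = 0.00444). In all 3 the groups did not overlap. These 8 and FBN1 and KCNK1 kept their calls in the 14 alternatives that kept the threshold of adjusted p under 0.05 alone. The remaining lower members were KLHL13, MGLL, KYNU, SEMA3C, DMD, H19, OLR1, BASP1, TMED3, AP1M2 and GSTM1. H19 was 125, 87.0 and 75.6 TPM in LV5-NID1, against 212, 197 and 181 TPM in LV5 (log2 fold change -1.06, SE 0.18, adjusted p = 0.0172), with the LV5-NID1 libraries spread wider than those of LV5. H19 lost its call in 4 of 14 alternatives, on leaving out LV5-NID1 replicate 2 or any 1 LV5 library (limma's adjusted p up to 0.0713).

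Of the members that rose, LINC00958 was 56.8, 62.4 and 61.3 TPM in LV5-NID1, against 45.1, 47.7 and 48.0 TPM in LV5 (log2 fold change 0.35, SE 0.06, adjusted p = 0.0157). ZNF300 was 32.4, 34.1 and 36.5 TPM in LV5-NID1, against 25.6, 27.7 and 25.01 TPM in LV5 (log2 fold change 0.38, SE 0.07, adjusted p = 0.0201). LCN2 was 27.6, 26.8 and 23.4 TPM in LV5-NID1, against 17.7, 19.6 and 20.2 TPM in LV5 (log2 fold change 0.42, SE 0.09, adjusted p = 0.0275). The groups did not overlap in any of the 3. All 3 calls were lost without LV5-NID1 replicate 2, LV5 replicate 1 or LV5 replicate 2, and those of ZNF300 and LCN2 also without LV5 replicate 3 and with a replicate block. That of LCN2 was lost too without LV5-NID1 replicate 1 and with no low filter. Over the alternatives, limma's adjusted p reached 0.0708 for LINC00958, 0.0801 for ZNF300 and 0.102 for LCN2.

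By role, the serine protease inhibitors fell in 2 of 3 members of their group, with PRSS21 not called. Receptors and membrane proteins fell in 4 of 10 (SCARA3, GLP2R, KCNK1 and OLR1), enzymes in 3 of 5 and signalling and trafficking members in 4 of 8. Over all members tested 38.9% fell, and over all genes 9.32% did. No role was tested against the others. None of the 3 cancer-testis members passed the test. MAGEA1 was 49.1, 44.0 and 46.7 TPM in LV5-NID1, against 47.2, 44.1 and 44.8 TPM in LV5. EGFR was 80.1, 79.8 and 89.1 TPM in LV5-NID1, against 92.0, 89.2 and 77.3 TPM in LV5, with overlapping groups. NR3C1 was 32.9, 34.5 and 37.7 TPM in LV5-NID1, against 29.9, 29.5 and 27.2 TPM in LV5, with groups that did not overlap and an adjusted p of 0.054 by limma.

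The number of lower members depended on single libraries. Without LV5-NID1 replicate 2 it was 12, without LV5 replicate 1 it was 11 and without LV5 replicate 2 it was 10. LV5-NID1 replicate 3 stood apart: it had 14998 genes at 1 TPM or more, where the other 5 libraries had 15321 to 15493. TRIP6 was 97.9, 80.8 and 33.6 TPM in LV5-NID1, against 105, 113 and 106 TPM in LV5, with that library the lowest, and RPL13P12 was 11.4, 10.1 and 1.19 TPM in LV5-NID1. Without it 24 members fell and 3 rose. The 10 colon epithelial markers summed to 927 to 988 TPM in LV5-NID1, with 3 at 1 TPM or more in every library and CDX1 and CDX2 listed at 0. They summed to 1633 to 1671 TPM in LV5, with 4 at 1 TPM or more. The part of these marker levels in the members' results was not tested.

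**Figure D4:**
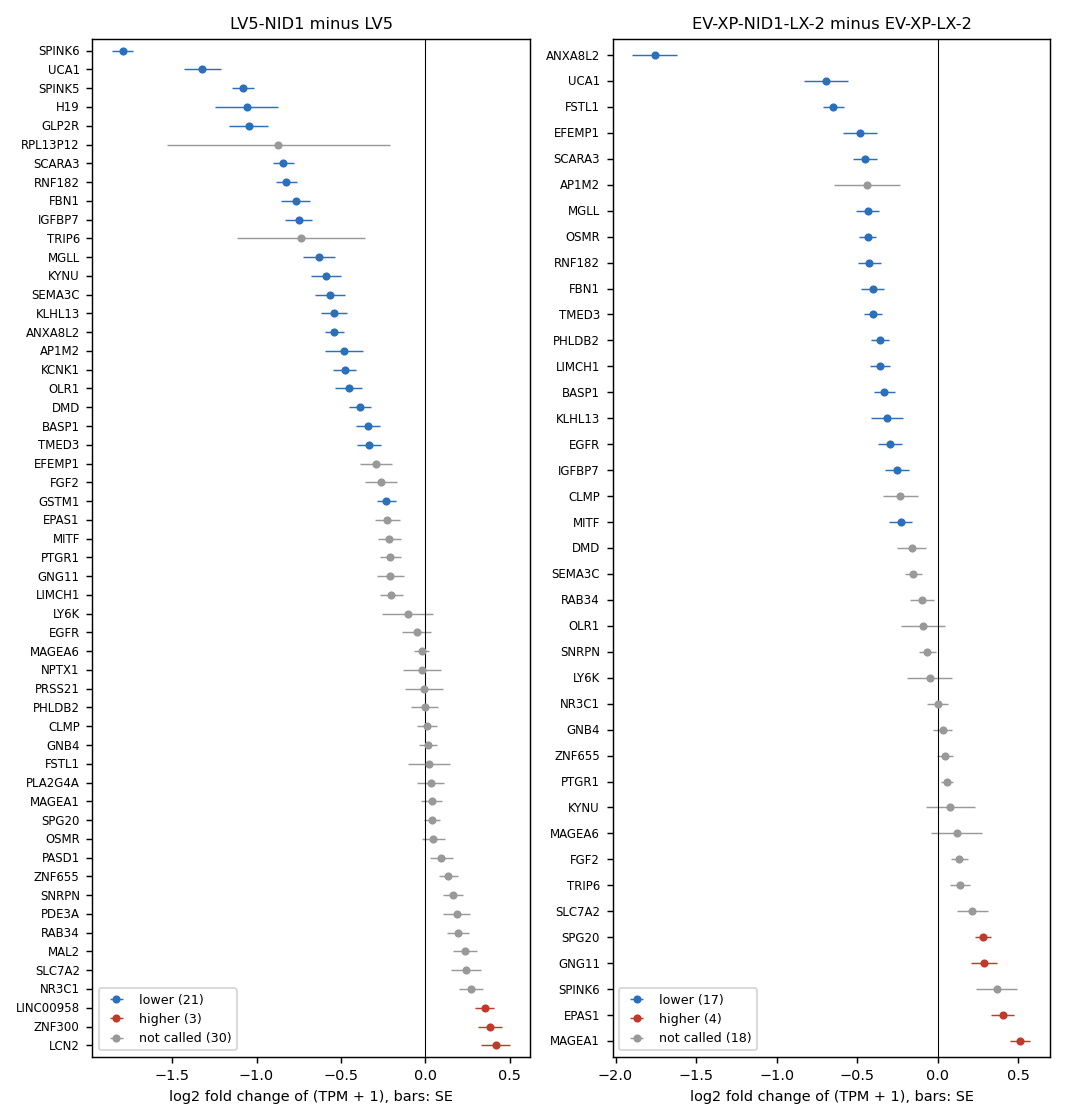
Log2 fold change of (TPM + 1) with its standard error (x axis) for each member tested (y axis, sorted), LV5-NID1 minus LV5 on the left and EV-XP-NID1-LX-2 minus EV-XP-LX-2 on the right. Blue members were called lower (21 and 17), red higher (3 and 4) and grey were not called (30 and 18); values for low genes are compressed by the added 1.

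**Figure D5:**
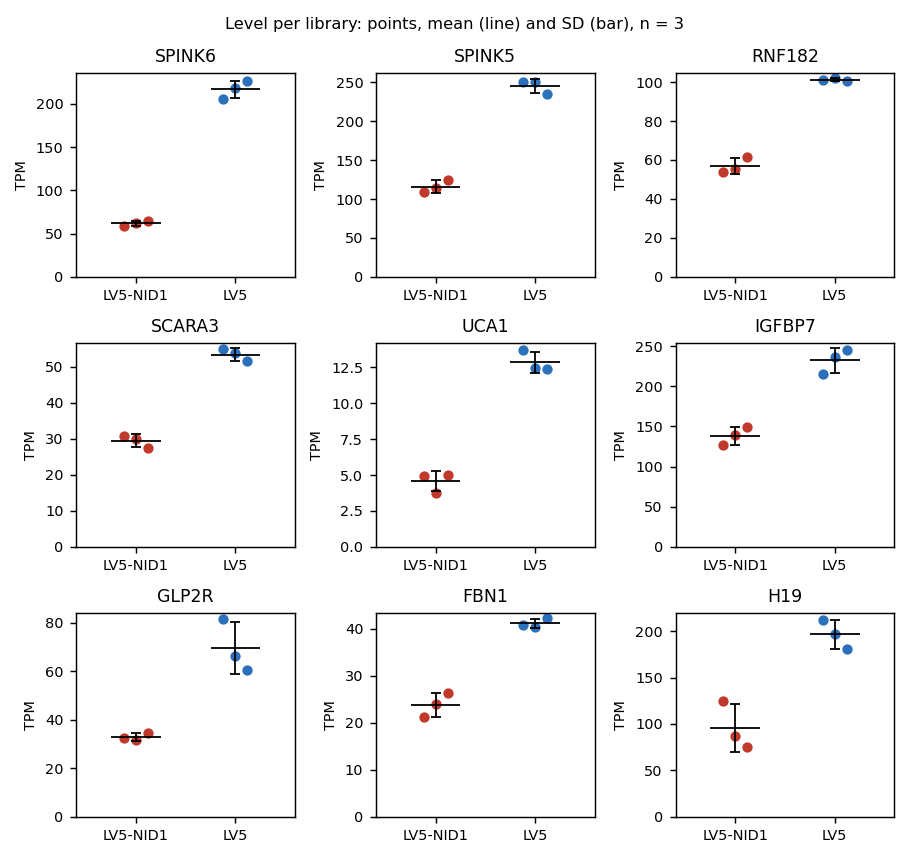
TPM of 9 members in each LV5-NID1 library (red) and each LV5 library (blue), with the mean (line) and SD (bar, n = 3). In each panel the 3 LV5-NID1 points lie below the 3 LV5 points.

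LX-2 cells given exosomes containing NID1 also held lower levels of more members than higher ones. ANXA8L2 fell by the largest factor among members, from a low level, and only its EV-XP-LX-2 libraries were at 1 TPM or more. FSTL1, OSMR, TMED3, PHLDB2, SCARA3, MGLL and RNF182 fell by smaller amounts, and MAGEA1, SPG20, EPAS1 and GNG11 rose. Of the 53 members listed, 39 passed the filter on low values (1 TPM in at least 3 libraries) and 14 did not. Of those 39, 17 fell and 4 rose, where 42.3% of all 15802 genes were called, 24.6% lower and 17.8% higher. As shares of the members tested, 43.6% fell and 10.3% rose. Among 3971 other genes at 50 or more in each SW480-P library, 51.7% were called, 20.9% lower and 30.8% higher. A fall of 1 or more was seen in 1 member, ANXA8L2, in 1.22% of all genes and in 0.227% of the other genes high in SW480-P. ANXA8L2 passed the filter only through the EV-XP-LX-2 libraries, so it could be called only lower. The median log2 fold change of the members tested was -0.16, against -0.048 over all genes and 0.037 over the other genes high in SW480-P. Groups did not overlap in 28 members, 71.8%, in 55.9% of all genes and in 65.5% of the other genes high in SW480-P. With median-ratio scaling 8 members rose and 16 fell, and over all genes the share of higher among called genes was 51.2%, where it was 41.9% on the deposited values.

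ANXA8L2 was 0.66, 0.68 and 0.62 TPM in EV-XP-NID1-LX-2, against 5.6, 4.32 and 3.97 TPM in EV-XP-LX-2 (log2 fold change -1.76, SE 0.14, adjusted p = 0.000294). Its log2 fold change was -2.64 with a pseudocount of 0.1 and -0.76 with a pseudocount of 5, and its levels are low. FSTL1 was 181, 154 and 173 TPM in EV-XP-NID1-LX-2, against 269, 270.3 and 257 TPM in EV-XP-LX-2 (log2 fold change -0.65, SE 0.07, adjusted p = 0.000572). OSMR was 131, 119 and 133 TPM in EV-XP-NID1-LX-2, against 178, 170.1 and 172 TPM in EV-XP-LX-2 (log2 fold change -0.43, SE 0.05, adjusted p = 0.00111). The groups did not overlap in any of the 3 genes. In the other comparison OSMR was 34.1, 33.6 and 36.7 TPM in LV5-NID1, against 34.1, 35.4 and 31.5 TPM in LV5, and was not called. TMED3 was 57.6, 52.6 and 57.4 TPM in EV-XP-NID1-LX-2, against 73.5, 71.6 and 77.0 TPM in EV-XP-LX-2 (log2 fold change -0.40, SE 0.06, adjusted p = 0.00174). PHLDB2 was 47.5, 42.7 and 46.9 TPM in EV-XP-NID1-LX-2, against 58.2, 59.0 and 59.3 TPM in EV-XP-LX-2 (log2 fold change -0.36, SE 0.06, adjusted p = 0.00238). Both were lower in every EV-XP-NID1-LX-2 library than in any EV-XP-LX-2 library.

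SCARA3 was 13.9, 11.98 and 12.8 TPM in EV-XP-NID1-LX-2, against 18.2, 17.3 and 18.4 TPM in EV-XP-LX-2 (log2 fold change -0.45, SE 0.07, adjusted p = 0.0032). MGLL was 27.9, 23.3 and 26.1 TPM in EV-XP-NID1-LX-2, against 35.4, 35.4 and 34.5 TPM in EV-XP-LX-2 (log2 fold change -0.44, SE 0.07, adjusted p = 0.00344). RNF182 was 9.66, 9.18 and 8.86 TPM in EV-XP-NID1-LX-2, against 12.4, 12.5 and 13.3 TPM in EV-XP-LX-2 (log2 fold change -0.42, SE 0.07, adjusted p = 0.00358). In each of these 8 genes all libraries with NID1 exosomes lay below all in EV-XP-LX-2. The calls held in every alternative that kept the threshold of adjusted p alone and tested the gene. ANXA8L2 was tested in 13 of these 14, as the filter of a mean of at least 5 TPM dropped it. The other lower members were FBN1, LIMCH1, BASP1, UCA1, EFEMP1, EGFR, IGFBP7, KLHL13 and MITF. EGFR lost its call when replicate 1 or replicate 2 of EV-XP-LX-2 was left out (limma's adjusted p up to 0.0552). IGFBP7 lost it in 5 of 14 alternatives (up to 0.0813), among them leaving out EV-XP-NID1-LX-2 replicate 1 or any EV-XP-LX-2 library. KLHL13 lost it in 9 of 13 (up to 0.113) and MITF in 9 of 14 (up to 0.180), on leaving out any 1 of the 6 libraries for KLHL13, and any 1 but EV-XP-LX-2 replicate 1 for MITF.

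MAGEA1 was 22.7, 20.7 and 20.9 TPM in EV-XP-NID1-LX-2, against 14.8, 14.6 and 14.8 TPM in EV-XP-LX-2 (log2 fold change 0.51, SE 0.06, adjusted p = 0.00109). SPG20 was 116, 113 and 107 TPM in EV-XP-NID1-LX-2, against 92.0, 93.6 and 90.0 TPM in EV-XP-LX-2 (log2 fold change 0.28, SE 0.05, adjusted p = 0.00365). EPAS1 was 89.8, 77.5 and 91.8 TPM in EV-XP-NID1-LX-2, against 64.1, 67.1 and 63.4 TPM in EV-XP-LX-2 (log2 fold change 0.40, SE 0.07, adjusted p = 0.00411). None of the 3 had overlapping groups. GNG11 was 27.2, 32.9 and 28.8 TPM in EV-XP-NID1-LX-2, against 24.1, 22.7 and 25.3 TPM in EV-XP-LX-2 (log2 fold change 0.29, SE 0.08, adjusted p = 0.028). All libraries with NID1 exosomes were above all in EV-XP-LX-2 in these 4 genes. GNG11 lost its call in 5 of 14 alternatives, among them leaving out EV-XP-NID1-LX-2 replicate 3 or replicate 1 or 2 of EV-XP-LX-2 (limma's adjusted p up to 0.0920). By role, secreted and matrix members fell in 4 of the 6 tested, and cytoskeletal members fell in 3 of 6 and rose in 1. Over all members tested 43.6% fell and 10.3% rose, and over all genes 24.6% fell and 17.8% rose. The 8 listed stellate markers summed to 1377 to 1647 TPM with NID1 exosomes, where LRAT was at 0, and to 2063 to 2231 TPM in EV-XP-LX-2. The 6 listed leukocyte markers summed to 16.8 to 23.2 TPM with NID1 exosomes and to 45.0 to 48.3 TPM in EV-XP-LX-2. Only 1 and 2 of them were at 1 TPM or more in every library of these groups. Other marker sums were lower with NID1 exosomes too: colon epithelial 199.7 to 232 against 248 to 261 TPM. Endothelial markers summed to 7.13 to 7.59 against 12.4 to 14.6 TPM, and hepatocyte markers to 13.3 to 14.1 against 20.8 to 22.6 TPM. The part of these levels in the members' results was not tested.

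The LV5 and LX-2 comparisons share no library, so their calls can be set side by side. Of 39 members tested in both, 16 fell in LV5-NID1 and 17 fell in LX-2 with NID1 exosomes, and 10 fell in both: RNF182, SCARA3, UCA1, ANXA8L2, IGFBP7, FBN1, KLHL13, MGLL, BASP1 and TMED3. That is 62.5% of the LV5-NID1 list and 58.8% of the LX-2 list. ANXA8L2 is counted here, though in LX-2 it passed the filter on low values only through EV-XP-LX-2 and could be called only lower. Without LV5 replicate 2, 6 of the 10 kept their LV5-NID1 call (BASP1, KLHL13, MGLL and TMED3 lost it), and 7 to 9 of the 10 did in 6 other alternatives. In LX-2 8 or 9 of the 10 kept the call in the 9 alternatives in which KLHL13 or IGFBP7 lost it. UCA1, ANXA8L2 and KLHL13 were not tested in LX-2 with the filter of a mean of at least 5 TPM. Over all 12873 genes tested in both, 373 fell in both, 34.2% of the 1092 lower in LV5-NID1 and 11.5% of the 3236 lower in LX-2. Among the other genes at 50 or more in each SW480-P library, 127 fell in both, 29.9% of 425 and 15.3% of 829. None of the 39 members was called in opposite directions. Of all 12873 genes tested in both, 420 were, a share so small that none among 39 does not set the members apart. FBN1 shows the pattern. It was 21.3, 24.0 and 26.4 TPM in LV5-NID1, against 40.9, 40.5 and 42.3 TPM in LV5 (log2 fold change -0.77, SE 0.09, adjusted p = 0.00475), and 55.4, 48.5 and 57.9 TPM in EV-XP-NID1-LX-2, against 72.8, 71.2 and 70.5 TPM in EV-XP-LX-2 (log2 fold change -0.40, SE 0.07, adjusted p = 0.00381).

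BASP1 belongs with GAP43, MARCKS and MARCKSL1 to a small class of proteins that bind PIP2 under the plasma membrane. MARCKS and MARCKSL1 were higher in SW480-LM3 by limma, where 43.9% of all genes were. GAP43 was also called higher, at 10.3, 7.90 and 8.95 in SW480-LM3, against 0, 0 and 0 in SW480-P. It passed the filter on low values only through SW480-LM3, so it could be called only higher. MARCKS was 117, 119.8 and 113 in SW480-LM3, against 45.1, 51.8 and 49.1 in SW480-P (log2 fold change 1.25, SE 0.06, adjusted p = 1.62e-11). MARCKSL1 was 321, 327 and 333 in SW480-LM3, against 76.7, 71.7 and 66.3 in SW480-P (log2 fold change 2.18, SE 0.05, adjusted p = 8.01e-15). BASP1 fell in LV5-NID1 and in LX-2 with NID1 exosomes (log2 fold changes -0.34 and -0.33), where MARCKS and MARCKSL1, the only others tested, were not called, apart from 1 higher call in each comparison with quantile normalization and 1 in LX-2 with median-ratio scaling. The LV5-NID1 call of BASP1 was lost in 6 of 14 alternatives, among them leaving out LV5-NID1 replicate 2 or any LV5 library (limma's adjusted p up to 0.0971).

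OSMR signals through the shared chain IL6ST, also called gp130. Of 5 other receptors of that family tested in SW480-LM3 against SW480-P, 3 were lower and 1 higher, so that 4 of 5 were called where 87.8% of all genes were. Scaling each library to the same total gave 2 and 2, and moved the median log2 fold change of all genes to 0.26. LIFR is counted among the lower ones. It met both thresholds and was left out of the 56 by name, so the rule fixed its fall. It was 0, 0 and 0 in SW480-LM3, against 273, 293 and 301 in SW480-P. IL6ST was 52.0, 50.9 and 45.9 in SW480-LM3, against 213, 231 and 245 in SW480-P (log2 fold change -2.19, SE 0.06, adjusted p = 5.65e-14). In LX-2 with NID1 exosomes 3 of 5 others rose and none fell, where 17.8% of all genes rose and 24.6% fell, with IL6ST at 212, 201 and 215 TPM, against 179.6, 182 and 194 TPM in EV-XP-LX-2. OSMR itself fell there. In LV5-NID1 3 of 6 others fell and none rose, where 9.32% of all genes fell and 7.27% rose.

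Other cancer-testis genes of the X chromosome did not all follow MAGEA1 and MAGEA6. Of 36 in the list 9 were listed in SW480-LM3 and SW480-P, and of 6 non-members tested there 4 were lower and 2 higher in SW480-LM3, where 43.9% of all genes were called in each direction. MAGEA3 was 0, 0 and 0 in SW480-LM3, against 44.7, 40.8 and 38.6 in SW480-P, though its sequence is close to that of MAGEA6. MAGEA12 was 4.48, 4.97 and 4.12 in SW480-LM3, against 0.285, 0.349 and 0.211 in SW480-P (log2 fold change 2.11, SE 0.14, adjusted p = 1.72e-09). MAGEA3 passed the filter on low values only through SW480-P, so it could be called only lower. MAGEA12 passed it only through SW480-LM3 and could be called only higher. In LV5-NID1 2 of 9 others rose (1 with quantile normalization) and 1 fell, where 7.27% of all genes rose and 9.32% fell. In LX-2 with NID1 exosomes 2 of 10 rose (3 with quantile or median-ratio scaling) and none fell, where 17.8% of all genes rose and 24.6% fell.

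Relatives of SEMA3C moved mostly the other way in SW480-LM3. Among 22 other semaphorins, plexins and neuropilins tested, 17 were higher and 3 lower (18 and 2 with each library scaled to the same total), where 43.9% of all genes were called in each direction. SEMA3A was 162, 160.1 and 156 in SW480-LM3, against 9.04, 7.46 and 8.18 in SW480-P (log2 fold change 4.12, SE 0.07, adjusted p = 5.28e-16), and PLXNB2, a plexin receptor, was 229.9, 248 and 230.4 in SW480-LM3, against 57.0, 54.9 and 53.1 in SW480-P (log2 fold change 2.08, SE 0.05, adjusted p = 6.93e-15). In LX-2 with NID1 exosomes 12 of 21 of these relatives fell and none rose (10 and 2 with quantile normalization), where 24.6% of all genes fell. In LV5-NID1 4 of 17 fell and none rose (3 and 1 with quantile normalization), where 9.32% of all genes fell. SEMA3C fell in LV5-NID1 (log2 fold change -0.56, adjusted p = 0.0118, lost with a replicate block and without LV5-NID1 replicate 2, LV5 replicate 1 or LV5 replicate 2, up to 0.0584) and was not called in LX-2 (adjusted p = 0.0542).

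Genes that write, read or remove DNA methylation were listed because of the silence described above. Of 13 tested in SW480-LM3 against SW480-P, 9 were higher and 4 lower, where 43.9% of all genes were called in each direction. DNMT1, the maintenance methyltransferase, was 255, 258 and 251 in SW480-LM3, against 60.7, 62.0 and 58.6 in SW480-P (log2 fold change 2.06, SE 0.04, adjusted p = 2.19e-15). UHRF1, which brings DNMT1 to newly copied DNA, was 119.6, 119 and 115 in SW480-LM3, against 58.5, 57.0 and 60.6 in SW480-P (log2 fold change 0.99, SE 0.05, adjusted p = 2.72e-11). TET1, which oxidises methylcytosine, was also higher, with means of 15.6 in SW480-LM3 and 0.337 in SW480-P. It passed the filter on low values largely through SW480-LM3. For the polycomb complex that methylates histone H3, 7 of 11 genes were higher and 4 lower, or 7 and 2 with each library scaled to the same total. EZH2, its catalytic subunit, had means of 137 in SW480-LM3 and 107 in SW480-P (log2 fold change 0.35, SE 0.04, adjusted p = 1.69e-06). In LV5-NID1 none of 12 DNA methylation genes was called (1 rose with quantile or median-ratio scaling) and 1 of 11 polycomb genes was called in each direction, where 16.6% of all genes were called. In LX-2 with NID1 exosomes 6 rose and 2 fell of 13, and 4 rose and 2 fell of 11, where 17.8% of all genes rose and 24.6% fell. What these levels have to do with the 56 genes was not tested.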

How the data were processed

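Poly(A) RNA was sequenced in 18 libraries, and the deposited tables were used as they stand. For SW480-LM3 and SW480-P the authors deposited a normalized signal per gene, which the values show to be read counts divided by a constant per library: every value (100%) lay within 0.05 read of a whole number of reads. For the other 2 tables the authors deposited TPM per gene. The submitters' processing notes name HISAT2 2.1.0 and Bowtie2 2.3.5, without their roles, and the genome build is not given in the sources used here. Depth of the TPM libraries is unknown.

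The rule for the members used only SW480-LM3 and SW480-P values. That rule and the gene lists were set with earlier results of these data known. Each table was tested alone with limma 3.58.1 (R 4.3.3) with a variance trend on log2(value + 1), keeping genes that reached 1 in 3 or more libraries, with Benjamini-Hochberg adjustment over the whole table and a call at adjusted p under 0.05. The limma step was tested on simulated data. edgeR 4.0.16 and DESeq2 1.42.0 were run on the recovered reads as alternatives. Fold changes are on the log2(value + 1) scale, which understates changes of low genes. Members were followed by gene ID without version, positions come from GENCODE v29 and promoters from RefSeq by symbol.

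Every member is named once. Values per library are given for the 10 members highest in SW480-P, the 6 highest and 6 lowest in LV5, the 6 highest in EV-XP-LX-2, up to 8 in each direction with the smallest adjusted p in each comparison, the 3 nearest each threshold and, for gene lists, the most abundant genes; others named were chosen after their values were seen. Same-numbered libraries deviated together with correlations of -0.047 to 0.063, which did not pair them. Alternatives were other thresholds, pseudocounts, filters and scalings, a replicate block and leaving out each library.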

Additional observations from a re-analysis of the deposited data

How the results depend on the processing

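With 25 or 100 in place of 50 in each SW480-P library, 99 and 21 genes met the rule in place of 56; of the 21, 21 were at 1 TPM or more in every LV5 library and 16 in every EV-XP-LX-2 library. In LV5-NID1 against LV5, members higher were 5 with quantile normalization, 1 with a replicate block, 0 where an absolute log2 fold change of 1 was also required and 0 to 3 leaving out 1 library, in place of 3. Members lower were 5 at that fold and 10 to 24 leaving out 1 library, in place of 21, and 15 with the block. Genes called over the whole table were 1532 with no low filter, 890 with the block, 220 at that fold and 713 to 3325 leaving out 1 library, in place of 2572. The share of higher among called genes was 54.8% with quantile normalization and 43.8% on the deposited values. In EV-XP-NID1-LX-2 against EV-XP-LX-2, members higher were 7 with quantile normalization, 8 with median-ratio scaling, 0 at that fold and 3 to 7 leaving out 1 library, in place of 4. Members lower were 1 and genes called 280 at that fold, in place of 17 and 6687. The block gave 3 higher and 15 lower members and 5956 genes there, and 12725 genes in SW480-LM3 against SW480-P, where limma called 12749, edgeR 13107 and DESeq2 12940. The replicate numbers were not read as pairs. Only LV5-NID1 replicate 1 and EV-XP-NID1-LX-2 replicate 3 correlated best with the control library of their own number. No member called in a comparison changed sign. The majority of called genes did turn from lower to higher: 1286 higher and 1061 lower with quantile normalization in LV5-NID1 (1127 and 1445 on the deposited values), and 3712 and 3592 with quantile normalization and 3858 and 3675 with median-ratio scaling in EV-XP-NID1-LX-2 (2805 and 3882 on the deposited values). Over single members, 138 alternative values lost a call, 22 gained one and 1227 did neither. The cause of these shifts was not tested, apart from the stricter fold, which removes smaller changes. Depth limits the SW480-LM3 values, where 38 members rest on fewer than 10 reads.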

Other observations

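Lists without a member among the 56 were read as well. In SW480-LM3 against SW480-P, limma called 4 lower and 1 higher of 5 caveolae genes, 4 lower and none higher of 5 metallothioneins, 6 lower and 1 higher of 7 placental genes, 3 lower and 6 higher of 10 aldo-keto reductases and aldehyde dehydrogenases, 6 lower and 10 higher of 17 ephrins and their receptors, and 1 lower and 10 higher of 11 neuronal cytoskeleton and vesicle genes. Over all genes 87.8% were called there, 43.9% in each direction. In LV5-NID1 against LV5 the placental genes were 12 lower and none higher of 13, where 9.32% of all genes were lower, and in LX-2 with NID1 exosomes 13 lower and none higher of 14, where 24.6% of all genes were lower.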
